A study of Mus musculus with 22 samples.

Results

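The genes described here are 26 of the 24475 genes in an RNA sequencing table of mouse liver. They are 20 enzymes of cholesterol synthesis, counting Ggps1 of its geranylgeranyl side branch, 4 genes of the machinery that controls the transcription factor SREBP2, and 2 further SREBP2 targets. They were picked by gene symbol as a known pathway, by a rule that sets no threshold on their values, and all 26 were expressed above the level required for testing. The 22 libraries came from livers of Gcg KO mice, which lack the glucagon gene, and of WT mice. Gcg KO mice without infusion (3 libraries, numbered 4 to 6), with 30 µg/d of glucagon (4 libraries, 11 to 14) and with 150 µg/d of glucagon (4 libraries, 19 to 22) stood beside WT mice without infusion (3 libraries, 1 to 3), with 30 µg/d (4 libraries, 7 to 10) and with 150 µg/d (4 libraries, 15 to 18). The labels name no vehicle infusion, so infusion itself and glucagon cannot be told apart. The labels give no age, sex or feeding state, and do not say that each library is a separate mouse, so p-values measure only the spread between these libraries.

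Cholesterol is built from acetyl-CoA through mevalonate, farnesyl diphosphate, squalene and lanosterol, and the liver is one of its main sites of synthesis. When sterols in the endoplasmic reticulum are scarce, SCAP carries SREBP2 to the Golgi, where proteases release the part that enters the nucleus and raises transcription of nearly every enzyme of the route. When sterols are plentiful, INSIG proteins hold SCAP in the endoplasmic reticulum, so the enzymes' transcripts tend to be high or low together. Glucagon is the fasting hormone that raises cyclic AMP in hepatocytes.

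Promoters of 3 members are shown, because Ebp was the one member that differed between groups, while Hmgcs1 and Nsdhl were the members that varied most between libraries of the same group. Each line gives the 250 bases that end at the annotated transcription start, on the gene's strand, from RefSeq on GRCm38.p6. Capitals mark the letters CCAAT, the core of the box bound by NF-Y, a partner of SREBP2 at sterol genes, and the letters TCACNCCAC, a form of the sterol regulatory element; both were searched on both strands and do not overlap each other here. The windows lie at chrX:8193513-8193762 on the minus strand (Ebp), chr13:119690101-119690350 on the plus strand (Hmgcs1) and chrX:72918271-72918520 on the plus strand (Nsdhl).
Ebp: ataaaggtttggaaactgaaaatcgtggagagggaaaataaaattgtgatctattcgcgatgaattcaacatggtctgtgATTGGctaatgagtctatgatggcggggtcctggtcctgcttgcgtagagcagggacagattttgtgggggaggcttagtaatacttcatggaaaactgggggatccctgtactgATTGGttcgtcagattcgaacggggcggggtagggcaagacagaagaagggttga
Hmgcs1: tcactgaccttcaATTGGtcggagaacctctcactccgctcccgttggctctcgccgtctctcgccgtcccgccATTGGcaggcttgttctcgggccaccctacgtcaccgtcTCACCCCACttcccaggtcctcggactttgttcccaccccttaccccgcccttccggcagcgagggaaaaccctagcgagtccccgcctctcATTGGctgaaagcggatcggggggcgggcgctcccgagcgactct
Nsdhl: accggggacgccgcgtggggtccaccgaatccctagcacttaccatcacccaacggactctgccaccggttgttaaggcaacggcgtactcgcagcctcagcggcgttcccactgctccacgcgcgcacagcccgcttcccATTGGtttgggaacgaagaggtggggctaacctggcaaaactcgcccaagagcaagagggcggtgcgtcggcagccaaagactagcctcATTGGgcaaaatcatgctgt

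Each promoter holds CCAAT on the reverse strand, where it reads ATTGG. The first base of a match stands at -170 and -55 from the start in Ebp, at -237, -176 and -45 in Hmgcs1, and at -109 and -20 in Nsdhl. The sterol regulatory element was found in Hmgcs1 alone among these 3, at -137. In windows from 250 bases before to 50 after the start, CCAAT was present in 20 of the 22 members that have a window (90.9%), against 41.1% of 27025 genes. The element TCACNCCAC was present in 1 of these 22 members (4.55%), Hmgcs1, against 1.44% of genes. A match of letters is a description of the sequence, and its absence says only that these letters are not in the window. No window was used for Sqle, Fdps, Fdft1 and Stard4.

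The pathway was well expressed in liver, with unequal levels along the route. RPKM values, read counts scaled by transcript length and library depth, are per length and can be set beside each other between genes. In the first stretch, which makes isoprenoid diphosphates, Hmgcs1 (HMG-CoA synthase) averaged 131 ± 17.4 RPKM in uninfused Gcg KO livers and 148 ± 30.4 RPKM in uninfused WT livers (SD, n = 3 each). Fdps, which makes farnesyl diphosphate, averaged 167 ± 61.1 RPKM in uninfused Gcg KO livers and 187 ± 26.5 RPKM in uninfused WT livers. The enzymes between them were lower: Mvk (mevalonate kinase) averaged 13.1 ± 2.06 RPKM in Gcg KO and 14.5 ± 1.81 RPKM in WT, and Mvd (the mevalonate diphosphate decarboxylase) 9.10 ± 2.53 RPKM in Gcg KO and 10.1 ± 3.01 RPKM in WT. Pmvk, the next kinase, averaged 24.1 ± 1.23 RPKM in Gcg KO and 22.9 ± 4.76 RPKM in WT, and Idi1, which isomerizes isopentenyl diphosphate, 97.6 ± 16.6 RPKM in Gcg KO and 93.1 ± 12.5 RPKM in WT. Ggps1, which draws farnesyl diphosphate off into geranylgeranyl diphosphate, was the lowest member at 2.70 ± 0.320 RPKM in uninfused Gcg KO livers and 2.88 ± 0.131 RPKM in uninfused WT livers.

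Among the enzymes that act after squalene, the reductase step of the sterol ring had an abundant and a scarce form. Tm7sf2 averaged 56.1 ± 12.2 RPKM in uninfused Gcg KO livers and 59.9 ± 9.84 RPKM in uninfused WT livers, whereas Lbr, a nuclear membrane protein with the same reductase activity, averaged 3.90 ± 0.149 RPKM in Gcg KO and 3.18 ± 0.471 RPKM in WT. Sc5d, the desaturase that follows Ebp, was the most abundant member in both uninfused groups, at 181 ± 31.8 RPKM in Gcg KO and 206 ± 38.7 RPKM in WT. The values for Sc5d, Fdps and Insig1 overlapped, so their order is not resolved by these libraries. Lss, which closes squalene epoxide into lanosterol, averaged 12.5 ± 2.07 RPKM in Gcg KO and 10.3 ± 1.95 RPKM in WT. In the annotation 13 of the 26 members overlap another gene; Fdps overlaps Gm43738 on the same strand over 7512 bases and shares its reads or not depending on a counting rule that is not given in the sources used here. Ebp, at chrX:8185329-8193512 on GRCm38, overlaps no annotated gene.

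**Figure D1:**
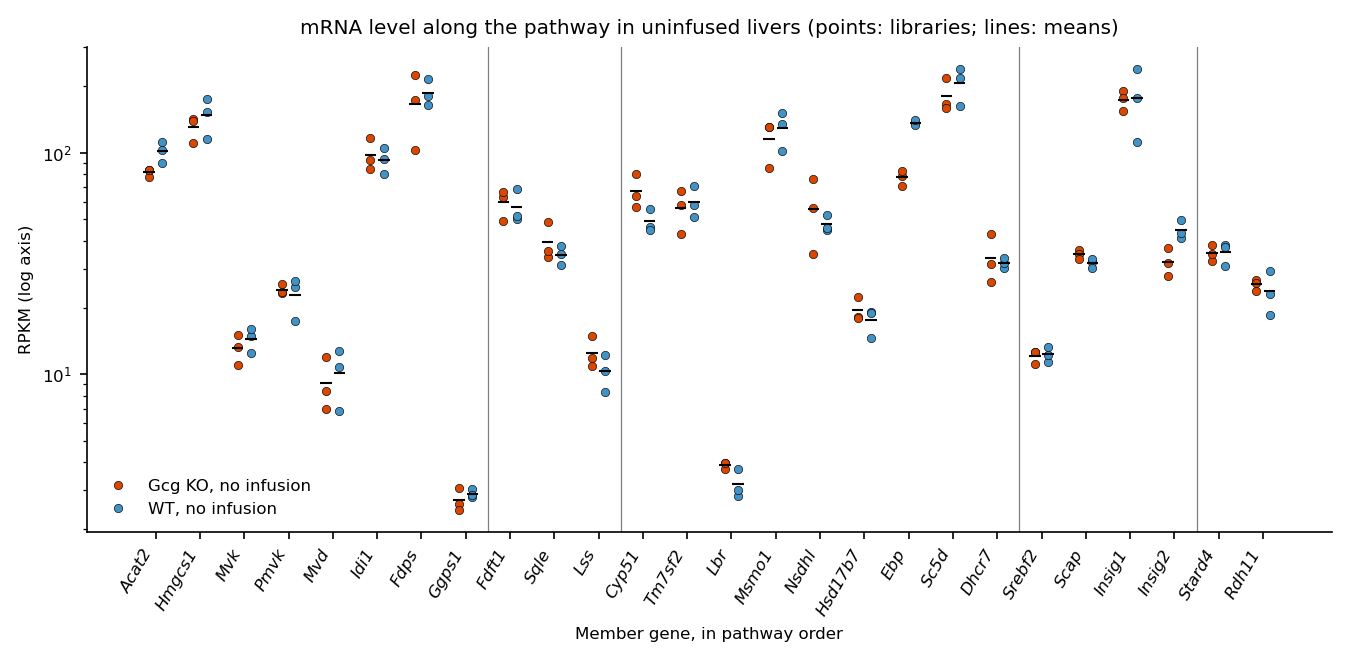
RPKM of each member in uninfused livers on a log axis, in pathway order; points are libraries and short lines are group means, with the 3 Gcg KO libraries (orange) left of the 3 WT libraries (blue). The route runs over a wide range of levels, with Ggps1 and Lbr near 3 RPKM, and Ebp is the member whose Gcg KO points stand well below its WT points.

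Of the 26 members, 1 differed between uninfused Gcg KO and uninfused WT livers: Ebp, the isomerase that shifts the double bond of the sterol ring between the methyl-removing enzymes and the desaturase Sc5d. In the 11590 genes tested, 1.54% were called at an adjusted p under 0.05 (limma with Benjamini-Hochberg adjustment over all tested genes), so 1 of 26 members (3.85%) is a small count beside the background. Ebp had 71.2, 78.5 and 82.9 RPKM in the uninfused Gcg KO libraries, against 136, 133 and 141 RPKM in the uninfused WT libraries. All 3 Gcg KO libraries lay below all 3 WT libraries, with a wide gap between the groups. Its log2 fold change was -0.81 ± 0.12 (SE; 95% interval -1.07 to -0.56; adjusted p = 0.00531, limma).

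With infusion, Ebp rose with the high dose in Gcg KO livers. It had 92.4, 99.5, 88.2 and 83.7 RPKM in Gcg KO libraries given 30 µg/d, a mean of 91.0 ± 6.71 RPKM (SD, n = 4) beside 77.5 ± 5.92 RPKM in the 3 uninfused Gcg KO libraries. Each of these 4 libraries lay just above the uninfused ones, and the difference was not called (log2 fold change 0.23 ± 0.12, 95% interval -0.01 to 0.47, limma adjusted p = 0.519). At 150 µg/d it had 148, 183, 137 and 117 RPKM in Gcg KO libraries, a mean of 147 ± 27.7 RPKM (n = 4). Every library at 150 µg/d lay above every Gcg KO library at 30 µg/d and without infusion. The log2 fold change of 150 µg/d against no infusion was 0.89 ± 0.12 (95% interval 0.65 to 1.14, limma adjusted p = 0.000978), and that of 150 µg/d against 30 µg/d was 0.67 ± 0.11 (95% interval 0.44 to 0.89, limma adjusted p = 0.00772). With only the groups compared in the fit, the same log2 differences had adjusted p = 0.119 and 0.139 (limma), so both calls rest on the spread estimated over all 6 groups.

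In WT livers the low dose was the low point for Ebp. It had 79.2, 83.4, 86.4 and 95.3 RPKM in WT libraries at 30 µg/d, a mean of 86.1 ± 6.84 RPKM (n = 4), against 137 ± 3.99 RPKM in uninfused WT libraries (n = 3). The groups did not overlap, yet the log2 fold change of -0.67 ± 0.12 (95% interval -0.91 to -0.42) had an adjusted p of 0.166 (limma), in a comparison in which 0 of 11590 genes (0%) were called and 657 genes (5.67%) had an unadjusted p under 0.05. At 150 µg/d WT libraries had 128, 134, 150.1 and 124 RPKM, a mean of 134 ± 11.6 RPKM, which overlaps the uninfused WT libraries (log2 fold change -0.04, 95% interval -0.28 to 0.21, limma adjusted p = 0.941). The difference between 150 and 30 µg/d in WT livers, 0.63 ± 0.11 on the log2 scale (95% interval 0.41 to 0.85), had a limma adjusted p of 0.0619, where 1 gene of 11590 (0.00863%) was called, and 4 of the 26 members had an unadjusted p under 0.05 beside 8.12% of all genes.

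At equal doses the genotypes were close for Ebp. The Gcg KO minus WT difference was 0.08 on the log2 scale at 30 µg/d (limma adjusted p = 0.821; 0.328% of all genes called) and 0.11 at 150 µg/d (limma adjusted p = 1; 0.0259% of all genes called). The test of whether the response to infusion differed between genotypes gave 0.89 ± 0.16 for 30 µg/d (95% interval 0.55 to 1.23) and 0.93 ± 0.16 for 150 µg/d (95% interval 0.59 to 1.27), Gcg KO response minus WT response on the log2 scale. Neither was called, with 9.02% of all genes at an unadjusted p under 0.05 at 30 µg/d and 10.2% at 150 µg/d: the limma adjusted p was 0.157 at 30 µg/d, where 0.00863% of genes were called, and 0.108 at 150 µg/d, where 0% were called (0 of 11590). Without library 22 the difference at 150 µg/d was 1.03 with a limma adjusted p of 0.0178. These comparisons share libraries: the uninfused Gcg KO libraries enter the genotype comparison and both Gcg KO dose comparisons, so the low Ebp values of libraries 4 to 6 appear in each.

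**Figure D2:**
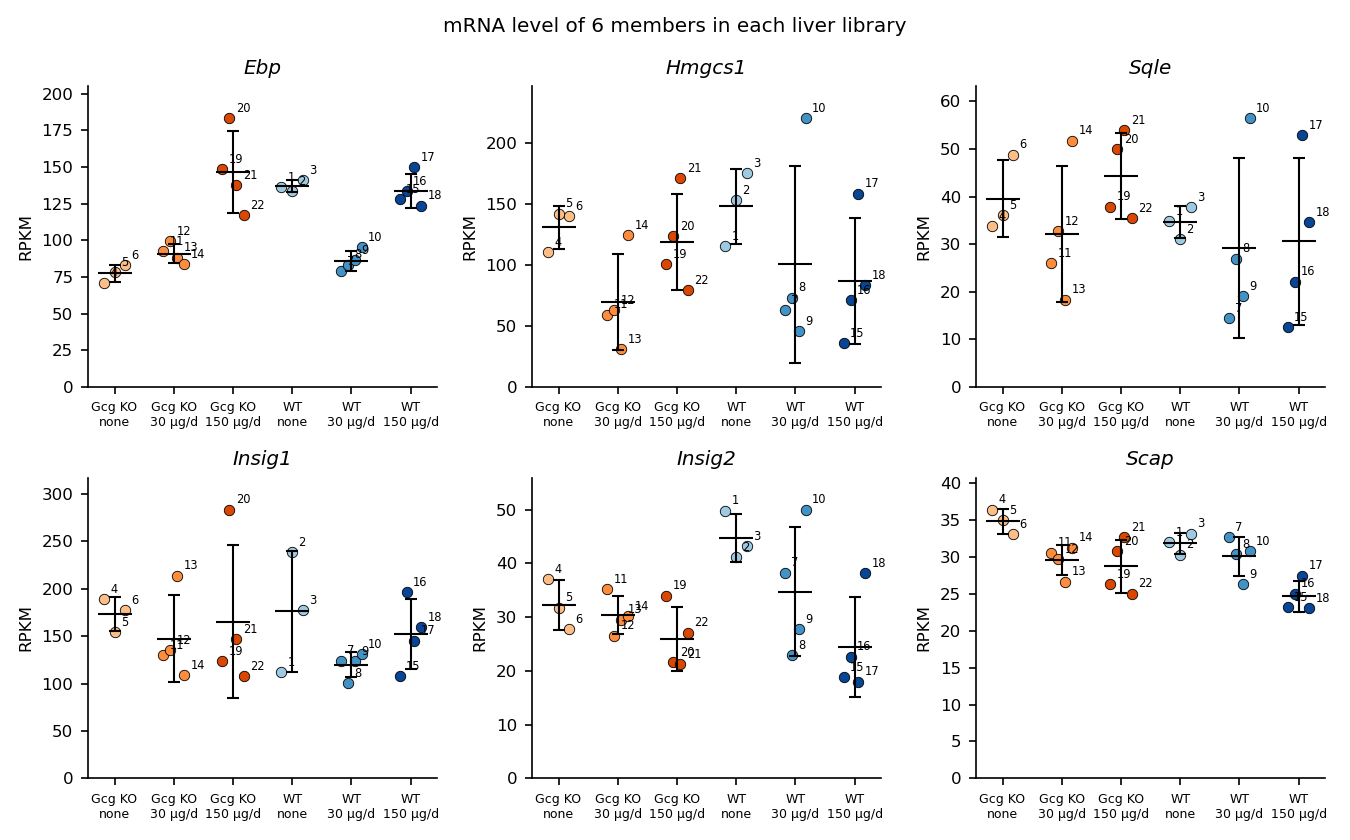
RPKM in each library for Ebp, Hmgcs1, Sqle, Insig1, Insig2 and Scap, by group (Gcg KO then WT, each without infusion, at 30 and at 150 µg/d); numbered points are libraries, long lines are group means and whiskers are SD. The Ebp points lie close together in uninfused Gcg KO (71.2 to 82.9 RPKM) and uninfused WT (133 to 141 RPKM). They spread most in Gcg KO at 150 µg/d, from 117 to 183 RPKM. Hmgcs1 and Sqle spread widely in WT under infusion and in Gcg KO at 30 µg/d.

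Markers of other liver cells were also at different levels in the groups between which Ebp differed. Of 9 tested endothelial markers, 4 rose in uninfused Gcg KO against uninfused WT livers (Pecam1, Lyve1, Stab2 and Cdh5), and 2 fell at 150 µg/d against no infusion in Gcg KO livers (Pecam1 and Cdh5). Their summed level was 109 to 116 RPKM in uninfused Gcg KO livers and 83.4 to 104 RPKM in Gcg KO livers at 150 µg/d, against 77.9 to 87.9 RPKM in uninfused WT livers, and no marker was at 0. None of 8 Kupffer cell markers was called, but all 8 were above 0 in the genotype comparison (median log2 difference 0.49, endothelial 0.36) and all 8 below 0 at 150 µg/d against none in Gcg KO (median -0.37, endothelial -0.25). Their sum was 193 to 202 RPKM in uninfused Gcg KO livers and 117 to 209.5 RPKM in Gcg KO livers at 150 µg/d, against 126 to 166 RPKM in uninfused WT livers. None of 8 stellate cell markers was called; their sum was 118 to 122 RPKM in uninfused Gcg KO livers and 116 to 123 RPKM in Gcg KO livers at 150 µg/d, against 86.2 to 98.1 RPKM in uninfused WT livers. The 8 hepatocyte markers, which gave the label of liver its check, summed to 48158.5 to 89049.6 RPKM over all libraries. Their sum was 61793.4 to 89049.6 RPKM in uninfused Gcg KO livers and 48158.5 to 59761.4 RPKM in Gcg KO livers at 150 µg/d. In uninfused WT livers it was 55517.7 to 60909.9 RPKM. None of the 8 was called in the genotype comparison (median log2 difference 0.09) or at 150 µg/d against none in Gcg KO (median -0.05). The part of these cells in the Ebp result was not tested. In bulk tissue, fewer cells of a type and less RNA per cell cannot be told apart.

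The 25 other members passed no test between uninfused Gcg KO and WT livers. The log2 differences of all 26 had a median of 0.02 with 13 below 0, beside a median of 0.01 and 47.9% below 0 for all genes tested. Groups did not overlap for 2 members that were higher in Gcg KO (Cyp51 and Lbr), where 13.1% of all genes were higher without overlap, and for 3 that were lower (Acat2, Ebp and Insig2), where 11.6% of all genes were lower without overlap. The 95% interval lay within a 2-fold change either way for 18 of 26 members, against 91.6% of all genes. A change of 2-fold is therefore not excluded for the other 8, of which Hmgcs1 had the widest interval.

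Cyp51, the demethylase that opens the processing of lanosterol, was among these. It had 57, 63.8 and 80.1 RPKM in uninfused Gcg KO libraries, against 46.4, 44.8 and 55.7 RPKM in uninfused WT libraries. The lowest Gcg KO library lay just above the highest WT library, and the log2 fold change was 0.44 ± 0.31 (95% interval -0.22 to 1.09, limma adjusted p = 0.504). In the infused groups it had 55.5, 44.8, 28.9 and 69 RPKM in Gcg KO at 30 µg/d, 51.5, 78.2, 76.3 and 55.2 RPKM in Gcg KO at 150 µg/d, 34.9, 42.6, 45.4 and 79.7 RPKM in WT at 30 µg/d, and 32.1, 49, 71.6 and 62.5 RPKM in WT at 150 µg/d. All of these groups overlapped one another.

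In both genotypes most members were lower at 30 µg/d than without infusion, with no member called. At 30 µg/d against no infusion, 24 of 26 members were below 0 on the log2 scale in Gcg KO livers (median -0.29, beside -0.02 and 55.8% below 0 for all genes), with 0.0863% of all genes called. In WT livers 24 of 26 were below 0 as well (median -0.34, beside -0.01 and 51.9% below 0 for all genes). Members vary together between libraries, so these counts do not rest on separate measurements. Without library 10 the WT median was -0.57, and without library 9 it was -0.22; without library 13 the Gcg KO median was -0.16. Groups did not overlap for 3 members that were lower in Gcg KO at 30 µg/d (Pmvk, Scap and Rdh11), where 5.58% of all genes were, and for 1 that was higher, Ebp, where 3.18% of all genes were. In WT livers 1 member was lower without overlap, Ebp (4.25% of all genes), and none was higher (3.24% of all genes). Among members at an unadjusted p under 0.05, 3 of 26 in Gcg KO and 3 of 26 in WT stood beside 10.1% of all genes in Gcg KO and 5.67% in WT.

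Hmgcs1 had lower means under infusion than without it in both genotypes, and the widest spread of the members. It had 59.1, 62.6, 30.8 and 124 RPKM in Gcg KO at 30 µg/d, against 111, 142 and 139.7 RPKM in uninfused Gcg KO. Of the 4 libraries at 30 µg/d, 3 lay well below the uninfused libraries and 1 among them (log2 fold change -1.07, 95% interval -2.11 to -0.03, limma adjusted p = 0.474). At 150 µg/d Gcg KO libraries had 101, 123, 171 and 79.3 RPKM, which overlap the uninfused ones (log2 fold change -0.19, 95% interval -1.23 to 0.85). In WT it had 63, 73.1, 45.6 and 220.2 RPKM at 30 µg/d, against 115, 153 and 175 RPKM without infusion. Library 10, at 220.2 RPKM, was the highest of all 22, beside 3 of the lower values (log2 fold change -0.81, 95% interval -1.85 to 0.23, limma adjusted p = 0.853). That difference was -1.28 without library 10 and -0.53 without library 9. At 150 µg/d WT libraries had 35.6, 71, 158 and 83.2 RPKM, with 1 library among the uninfused values and 3 below (log2 fold change -0.93, 95% interval -1.97 to 0.11, limma adjusted p = 0.467; -0.57 without library 15).

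Sqle (squalene epoxidase) spread in the same libraries. It had 33.8, 36.1 and 48.8 RPKM in uninfused Gcg KO libraries, 26, 32.7, 18.3 and 51.8 RPKM at 30 µg/d, and 37.9, 49.9, 54 and 35.5 RPKM at 150 µg/d. WT libraries had 34.8, 31.1 and 37.8 RPKM without infusion, 14.4, 26.9, 19 and 56.5 RPKM at 30 µg/d, and 12.5, 22.1, 53 and 34.6 RPKM at 150 µg/d. Within each infused WT group the lowest and highest library differed by more than any pair of group means. The Gcg KO minus WT difference at 150 µg/d was 0.68 on the log2 scale, with an interval of -0.13 to 1.5 (limma adjusted p = 1); it was 0.33 without library 15 and 1 without library 17.

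Nsdhl and Msmo1, of the methyl-removing enzymes, spread much like Sqle, and Hsd17b7 spread less. On the log2 scale the residual SD within groups was 0.612 for Nsdhl, 0.539 for Msmo1 and 0.307 for Hsd17b7, against 0.6 for Sqle. Nsdhl, a decarboxylating sterol dehydrogenase, had 35, 56.1 and 75.8 RPKM in uninfused Gcg KO libraries, 53.5, 53.4, 16.1 and 68.7 RPKM at 30 µg/d, and 59.9, 63.3, 57.6 and 42.5 RPKM at 150 µg/d. WT libraries had 44.9, 46 and 52.6 RPKM without infusion, 22.2, 34.5, 27.7 and 67.2 RPKM at 30 µg/d, and 23.2, 51.4, 66.7 and 57.6 RPKM at 150 µg/d. Library 13 was far below the other 3 of its group and library 10 far above the other 3 of its own, and the groups overlapped. Msmo1, the methyl sterol oxidase that acts before Nsdhl, ran from 52.6 RPKM in library 13 to 181 RPKM in library 10, and Hsd17b7, the keto reductase that acts after it, from 9.33 RPKM in library 13 to 24.4 RPKM in library 21. Dhcr7, a reductase of the last steps, ran from 17.7 RPKM in library 9 to 49 RPKM in library 20, and Fdft1, which joins farnesyl diphosphate into squalene, from 30.2 RPKM in library 15 to 80.5 RPKM in library 21.

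Acat2, the thiolase that begins the route, differed less between libraries of a group. It had 83.9, 77.7 and 83.4 RPKM in uninfused Gcg KO libraries, against 90.2, 103 and 112 RPKM in uninfused WT libraries. The groups did not overlap, and the log2 fold change was -0.31 ± 0.18 (95% interval -0.68 to 0.06, limma adjusted p = 0.383). Stard4 averaged 35.2 ± 2.85 RPKM in uninfused Gcg KO livers and 35.5 ± 4.20 RPKM in uninfused WT livers, and ran from 20 RPKM in library 19 to 40.9 RPKM in library 21.

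Low values under infusion were seen outside the ring enzymes as well. Rdh11, a retinol dehydrogenase and SREBP2 target, had 16.1, 17.5, 13.3 and 18.5 RPKM in Gcg KO at 30 µg/d, against 23.9, 26.7 and 25.9 RPKM in uninfused Gcg KO. All 4 infused libraries lay below the uninfused ones (log2 fold change -0.62, 95% interval -1.10 to -0.14, limma adjusted p = 0.377). Mvd had 3.47, 4.80, 3.35 and 11.8 RPKM in WT at 30 µg/d, against 6.82, 10.8 and 12.7 RPKM in uninfused WT, with library 10 again among the uninfused values (log2 fold change -0.81, 95% interval -1.61 to -0.01, limma adjusted p = 0.837).

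At the high dose the members' differences from no infusion were centred near 0 in Gcg KO livers. There 12 of 26 members were below 0 (median 0.04, beside -0.04 and 58.4% below 0 for all genes), and 1 of 26 was called, Ebp, with 2.72% of all genes called. Groups did not overlap for 1 higher member, Ebp (4.55% of all genes), and 1 lower member, Scap (8.95% of all genes). In WT livers 19 of 26 were below 0 (median -0.17, beside -0.02 and 53.8% below 0 for all genes), 0 were called beside 0.293% of all genes, and 2 had an unadjusted p under 0.05 (12.1% of all genes). Without library 15 that median was -0.01. In WT, 2 members were lower without overlap, Scap and Insig2 (9.18% of all genes), and none was higher (5.27% of all genes). The interval lay within a 2-fold change either way for 21 of 26 members in Gcg KO, against 92.2% of all genes, and for 19 of 26 in WT, against 93.6%.

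Between the doses most members had higher means at 150 than at 30 µg/d in both genotypes, with Ebp in Gcg KO livers the single call. In Gcg KO livers 3 of 26 were below 0 (median 0.39, and 0.24 without library 13), with 0.544% of all genes called. Over all genes the median was -0.02 and 54.8% were below 0. In that comparison 6 members had an unadjusted p under 0.05, beside 12.9% of all genes; they include Pmvk (0.63, 95% interval 0.19 to 1.07, limma adjusted p = 0.191) and Lss (0.53, 95% interval 0.11 to 0.95, limma adjusted p = 0.245). In WT livers 7 of 26 were below 0 (median 0.16, beside -0.01 and 53.6% below 0 for all genes). That median was -0.02 without library 17 and 0.35 without library 10. Pmvk had 0.63 in WT livers with an interval of 0.19 to 1.07 (limma adjusted p = 0.442). At equal doses no member was called between genotypes: 0 of 26 had an unadjusted p under 0.05 at 30 µg/d, beside 11.9% of all genes, and 1 of 26, Scap, at 150 µg/d, beside 1.99% of all genes. At 150 µg/d 3 of 26 were lower in Gcg KO than in WT (median 0.24, and 0.09 without library 15), beside a median of -0.01 and 53.4% below 0 for all genes. The response to 150 µg/d, Gcg KO minus WT, was above 0 for 24 of 26 members (92.3%, against 47.7% of all genes). Its median was 0.197, and 0.097 without library 3, beside -0.012 for all genes. For 30 µg/d it was above 0 for 15 of 26 (57.7%, against 46.9%). No member was called in either, and members vary together between libraries.

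**Figure D3:**
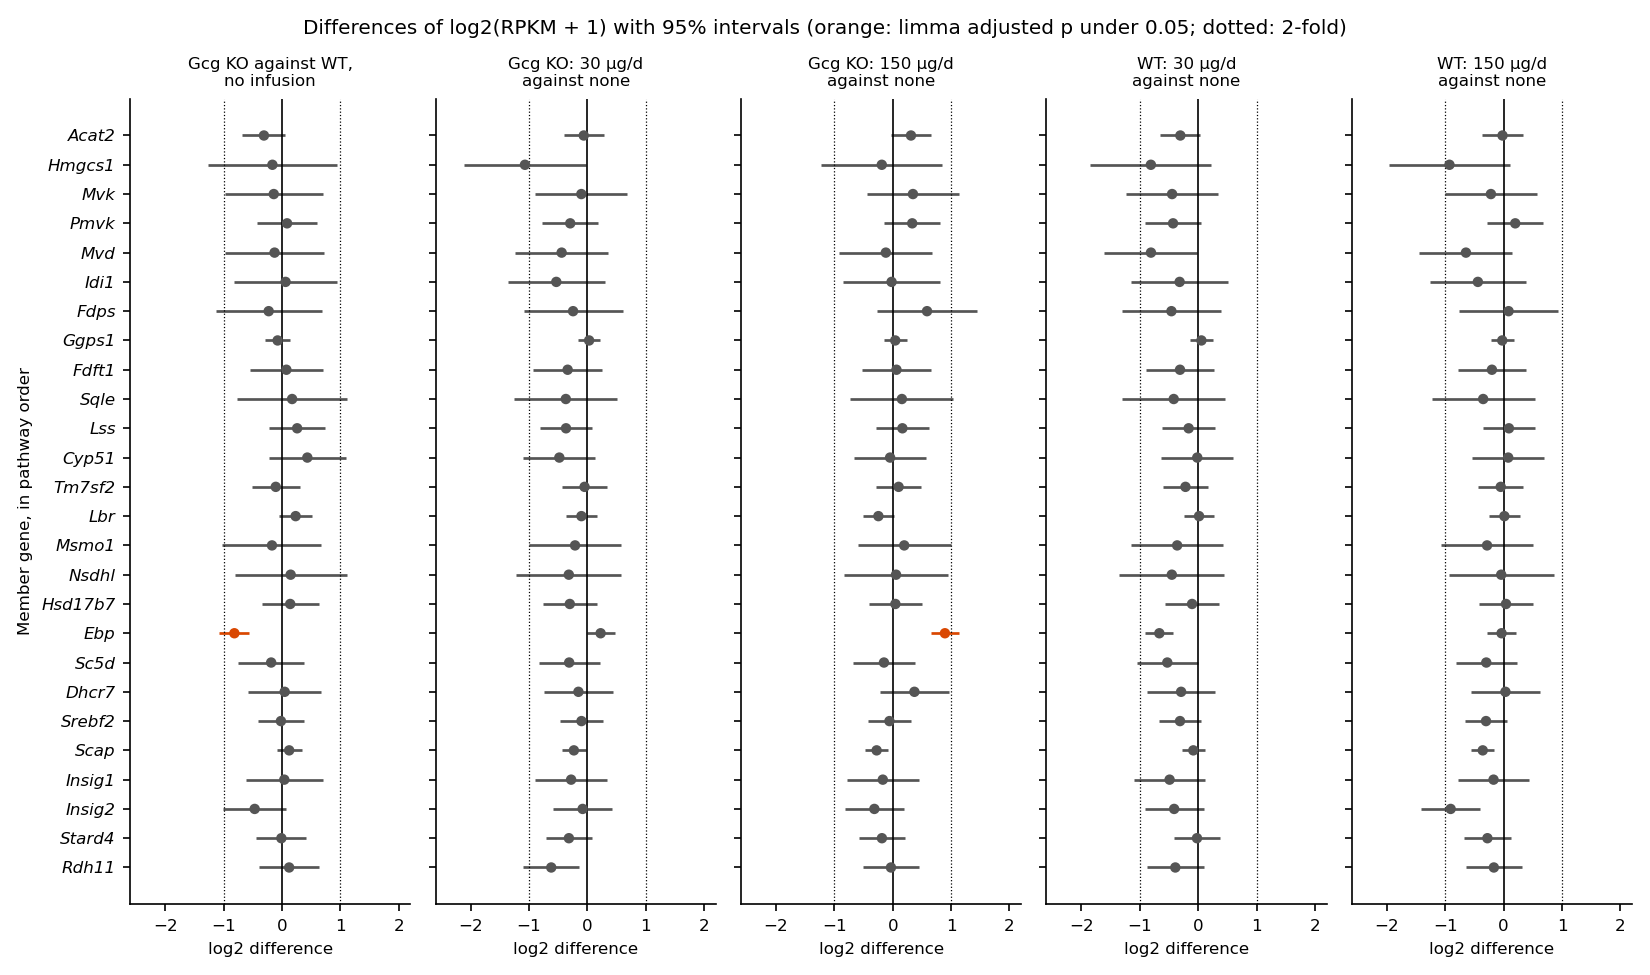
Log2 difference and its 95% interval (limma) for each member in the 5 comparisons with uninfused livers; orange marks a limma adjusted p under 0.05 and dotted lines a 2-fold change. Ebp is orange in the genotype comparison and at 150 µg/d in Gcg KO livers; most intervals cross 0, and those of Hmgcs1, Sqle and Nsdhl are the widest.

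The genes that regulate SREBP2 included Insig2, whose liver transcript is known to be repressed by insulin in mouse. It had 37.1, 31.8 and 27.8 RPKM in uninfused Gcg KO libraries, 35.3, 26.6, 29.6 and 30.1 RPKM at 30 µg/d, and 34, 21.7, 21.2 and 27.1 RPKM at 150 µg/d. In WT it had 49.8, 41.2 and 43.3 RPKM without infusion, 38.3, 23, 27.8 and 50 RPKM at 30 µg/d, and 18.9, 22.7, 18 and 38.2 RPKM at 150 µg/d. The uninfused WT libraries were above all uninfused Gcg KO libraries (log2 fold change -0.47, 95% interval -1.01 to 0.08, limma adjusted p = 0.372). They were also above all WT libraries at 150 µg/d, where the log2 fold change was -0.91 ± 0.24 (95% interval -1.42 to -0.40). That difference had a limma adjusted p of 0.118, and of 0.0414 without library 18, the highest of its group.

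Scap, the escort of SREBP2, was among the members that varied least between libraries. It had 36.4, 35 and 33.1 RPKM in uninfused Gcg KO libraries, 30.6, 29.7, 26.7 and 31.2 RPKM at 30 µg/d, and 26.3, 30.8, 32.7 and 25 RPKM at 150 µg/d. WT libraries had 32, 30.3 and 33.2 RPKM without infusion, 32.7, 30.4, 26.3 and 30.8 RPKM at 30 µg/d, and 23.2, 25, 27.5 and 23 RPKM at 150 µg/d. Both groups at 150 µg/d lay below their uninfused libraries without overlap. The log2 fold changes were -0.28 in Gcg KO (95% interval -0.48 to -0.08, limma adjusted p = 0.126) and -0.36 ± 0.10 in WT (95% interval -0.56 to -0.16, limma adjusted p = 0.117), neither of them called. With libraries weighted by how closely their own values followed the fit, WT Scap and Insig2 were called (limma adjusted p = 0.014 and 0.0296). The weights also raised the calls over all genes in that WT comparison, from 34 to 438 of 11590.

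Srebf2, which encodes SREBP2, ran from 7.38 RPKM in library 15 to 14.8 RPKM in library 14. It had 12.6, 12.7 and 11.2 RPKM in uninfused Gcg KO libraries, 10.7, 12, 8.28 and 14.8 RPKM at 30 µg/d, and 14.2, 11, 11.3 and 10.3 RPKM at 150 µg/d. In WT it had 11.4, 12.3 and 13.2 RPKM without infusion, 10.1, 9.10, 7.62 and 12.5 RPKM at 30 µg/d, and 7.38, 9.01, 12.5 and 10.9 RPKM at 150 µg/d. The groups overlapped, and the log2 fold change for 150 µg/d against none in WT was -0.30 (95% interval -0.67 to 0.07, limma adjusted p = 0.511; -0.18 without library 15).

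Insig1, itself a target of SREBP, had 189, 154 and 177 RPKM in uninfused Gcg KO libraries, 130.3, 136, 214 and 109 RPKM at 30 µg/d, and 124, 284, 147 and 108 RPKM at 150 µg/d. WT libraries had 112, 239 and 178 RPKM without infusion, 124, 101, 124 and 131 RPKM at 30 µg/d, and 108, 197, 145 and 159.8 RPKM at 150 µg/d. Its highest value was in library 20. Infused and uninfused libraries of each genotype overlapped; the log2 fold change for 30 µg/d in WT was -0.49 (95% interval -1.10 to 0.12, limma adjusted p = 0.845), -0.78 without library 1 and -0.24 without library 2.

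Most members varied more between libraries of the same group than the median gene of like level. The largest ratio between libraries of 1 group was 4.83 for Hmgcs1, 4.26 for Nsdhl, 4.26 for Mvd, 4.23 for Sqle and 4.07 for Mvk, against 1.57 for Ebp and 1.31 for Scap. That ratio exceeded the ratio of the highest to the lowest group mean for 24 of 26 members (92.3%, Ebp and Scap being the exceptions), as it did for 94.4% of all tested genes, so this count does not set the members apart. The residual SD on the log2 scale had a median of 0.346 over the members, against 0.16 over the 7649 tested genes in the members' range of mean RPKM. It was above that 0.16 for 23 of the 26, led by Hmgcs1 (0.708), and below it for Ggps1 (0.115), Scap (0.119) and Ebp (0.149).

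The members that varied did so in the same libraries. Library 10, WT at 30 µg/d, was the highest of its 4 for 22 of 26 members (84.6%), against 19% of all tested genes. Library 14, Gcg KO at 30 µg/d, was the highest of its 4 for 18 members (69.2%, against 33.5% of all genes), and library 13 of that group the lowest for 18 (69.2%, against 29.9%). Library 15, WT at 150 µg/d, was the lowest for 19 members (73.1%, against 21.3%), and library 17 of that group the highest for 15 (57.7%, against 19.2%). In Gcg KO at 150 µg/d, library 20 was the highest for 15 members (57.7%, against 31.4%) and library 22 the lowest for 16 (61.5%, against 20.5%). Without infusion, library 6 was the highest Gcg KO library for 16 members (61.5%, against 38.2%), and library 3 the highest WT library for 21 (80.8%, against 34.5%). Library 4 was the lowest Gcg KO library there for 14 (53.8%, against 34.3%), and library 1 the lowest WT library for 20 (76.9%, against 40.4%). These shares are descriptions of single libraries and carry no test.

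**Figure D4:**
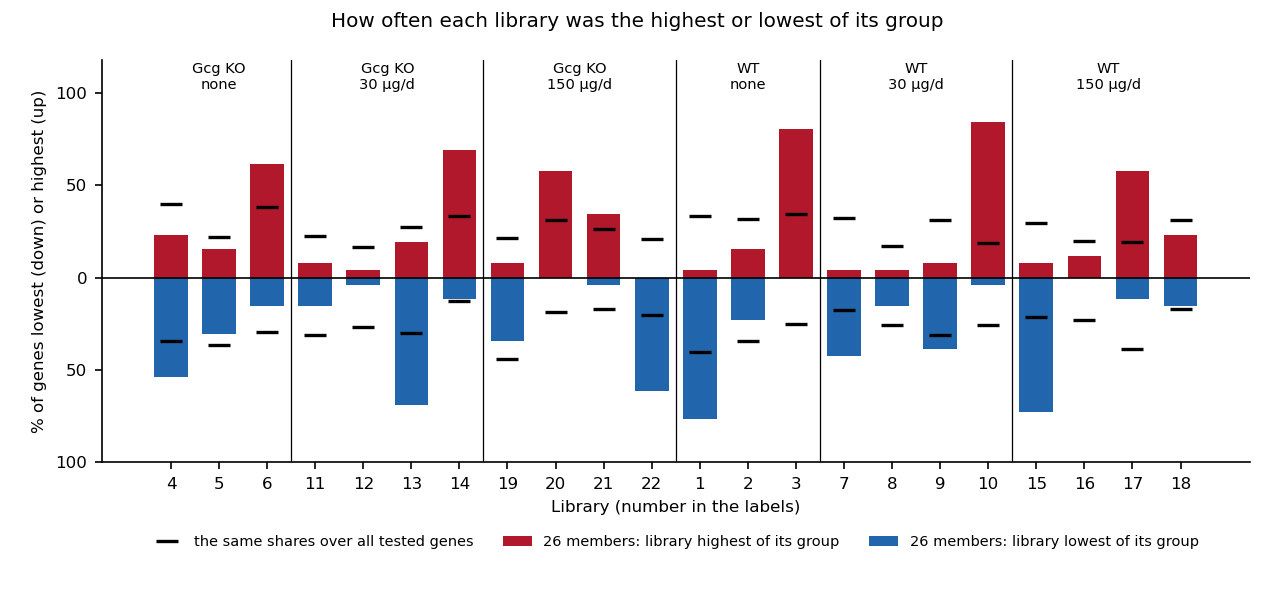
Percent of the 26 members for which each library was the highest (red, upward) or the lowest (blue, downward) of its group; black marks give the same shares over all tested genes. Library 10 is the highest of its group for 84.6% of members. Library 1 is the lowest of its group for 76.9% and library 15 the lowest of its group for 73.1%.

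**Figure D5:**
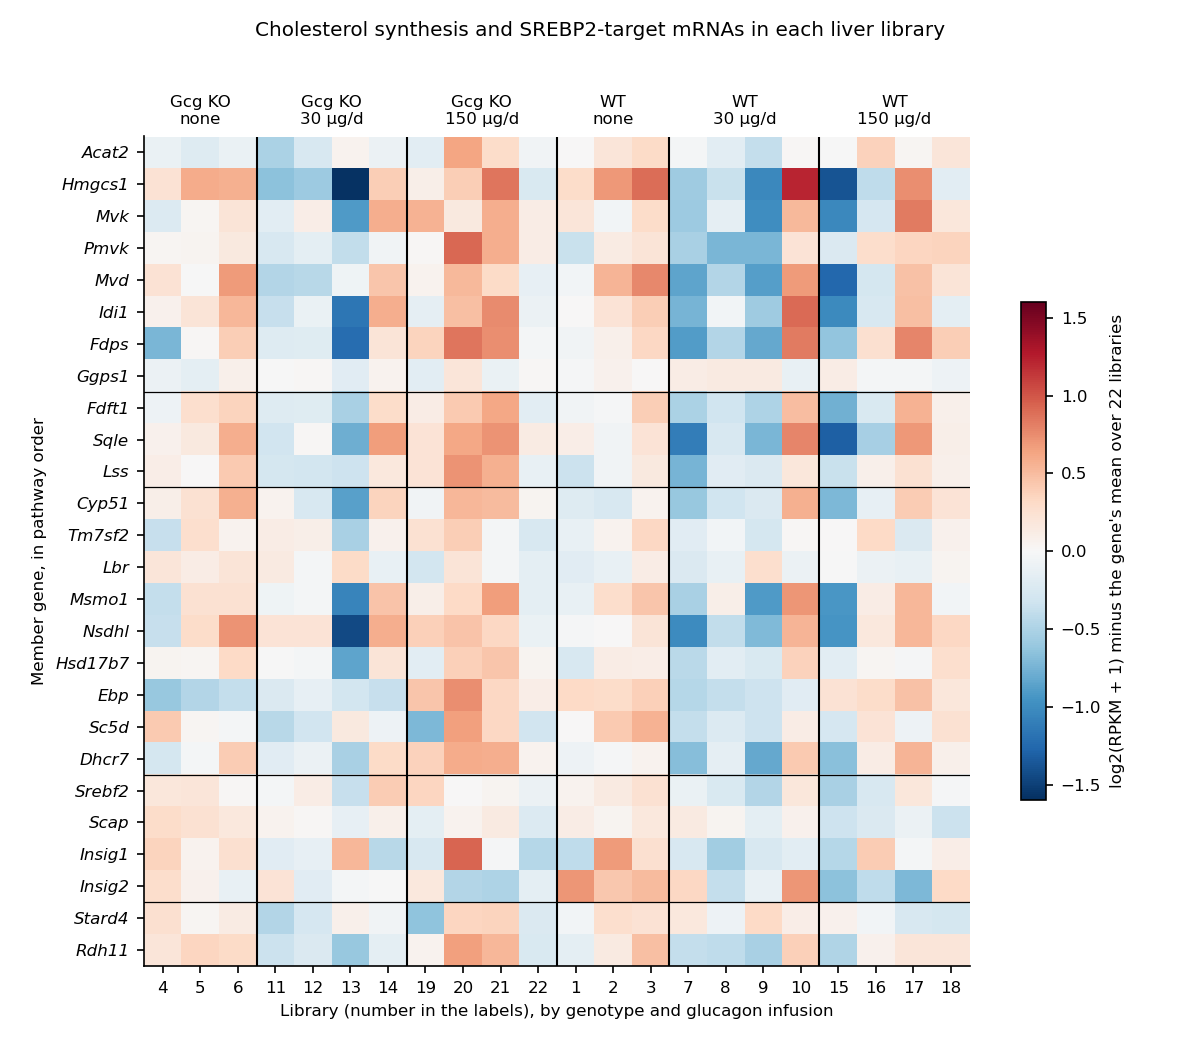
Level of each of the 26 members in each of the 22 libraries, as log2(RPKM + 1) minus the gene's mean over all libraries, in pathway order with Gcg KO libraries left of WT libraries. Libraries 20, 21 and 10 have the highest mean over the members (5.61, 5.53 and 5.52 on the log2 scale) and libraries 15, 13, 9 and 7 the lowest (4.63, 4.67, 4.72 and 4.74), whereas the Ebp row follows the groups.

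Not every member followed that shared pattern. Libraries 4 and 13, both Gcg KO, stood apart from the rest in male-biased liver genes, with mean log2 levels of 4.62 and 5.78 against 6.98 to 8.59 in the other 20 libraries. They also had the highest sums of 6 proliferation markers, 10.9 and 9.18 RPKM, where the next was 6.84 RPKM in library 18. In both of them 13 of 26 members (50%) were the lowest of their group, from Hmgcs1 and Mvk through Sqle and Cyp51 to Dhcr7, against 14.8% of all tested genes. In both, 4 members were the highest of their group: Acat2, Sc5d, Insig1 and Stard4, a carrier of cholesterol between membranes. That is 15.4% of members against 15.3% of all genes, so this count does not set the members apart. Of 14 tested genes of fatty acid synthesis under SREBP1, 9 were the highest of their group in both libraries, among them Fasn and Acaca, and 2 were the lowest, Me1 and Acss2. Ebp stayed called without these 2 libraries, with a log2 difference of -0.76 between uninfused Gcg KO and WT (limma adjusted p = 0.0347) and of 0.84 in Gcg KO between 150 µg/d and none (limma adjusted p = 0.00766).

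Genes of the neighbouring pathways showed few calls. In Gcg KO at 150 µg/d against none, 1 of 15 genes of sterol efflux and storage fell, Soat2, which esterifies cholesterol: it averaged 9.45 ± 1.55 RPKM at 150 µg/d (n = 4) and 16.5 ± 4.47 RPKM without infusion (n = 3), where library 4 had 21.6 RPKM (log2 fold change -0.72 ± 0.16, limma adjusted p = 0.0216). In the same comparison 1 of 12 genes of the isoprenoid branches fell, Trit1, a tRNA isopentenyl transferase, with 4.64 ± 0.501 RPKM at 150 µg/d and 6.62 ± 0.693 RPKM without infusion (log2 fold change -0.43 ± 0.11, limma adjusted p = 0.0376). None of 9 genes of SREBP cleavage and turnover, 14 of fatty acid synthesis, 8 further SREBP2-responsive genes and 11 clock genes was called in any of the 11 comparisons. Over the libraries that stood apart, neither clock genes nor fatty acid synthesis genes kept 1 relation to the members. Of 11 clock genes, library 10 was the lowest of its group for 8 (25.7% of all genes) and library 17 for 7 (38.9%), both libraries in which members were often the highest, and library 15 was the highest for 5 (29.6%), where members were often the lowest. Library 1 was instead the lowest for 8 clock genes (40.4% of all genes) and library 22 for 5 (20.5%), as each was for many members. Library 20 was the highest for 5 (31.4%), and library 13 was the highest for 2 (27.4%) and the lowest for 2 (29.9%). Of 14 fatty acid synthesis genes, library 20 was the highest for 13 (31.4% of all genes) and library 3 the highest for 8 (34.5%). Library 1 was the lowest for 13 (40.4%), and libraries 15 (21.3%) and 22 (20.5%) the lowest for 7 each. These are the same extremes as the members. Library 10 was the highest for 3 of these genes (19% of all genes) and the lowest for 3 (25.7%). Library 14 was the highest for 1 (33.5%) and the lowest for 3 (12.5%). Library 13 was the highest for 11 (27.4%), and library 17 the lowest for 7, not far from its share of 38.9% of all genes. Their part in the members' variation was not tested.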

How the data were processed

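PolyA RNA of flash-frozen liver was made into strand-specific libraries with the KAPA mRNA kit, per the labels' protocols. CASAVA 1.8.2, FastQC and GRCm38 are listed in the submitters' processing notes; which aligner, counting rule and annotation were used is not given in the sources used here. The authors deposited RPKM values, 1 column for each of 22 libraries and 24475 genes, of which 5599 were at 0 in every library; columns summed to 558222 to 596386 RPKM, and no columns were identical. Depth was estimated from the steps between low values at 11.1 to 17.6 M reads per library (median 13.7 M), but only 64.7 to 70.2% of those values lay within 0.1 read of a whole number, so no count model was used.

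Groups came from the titles. Genes with a mean of at least 0.5 RPKM (11590) entered limma 3.58.1 in R 4.3.3 on log2(RPKM + 1), which understates fold changes of low genes: 6 groups in 1 fit, 16 residual and 3.18 prior degrees of freedom, a mean-variance trend, 11 comparisons and Benjamini-Hochberg adjustment over all tested genes at 0.05. SE values are limma's; SD values are on RPKM. The fit was tested on simulated data. Positions, promoter windows and motifs are from RefSeq and the annotation of GRCm38.

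Values by library are given for each called member and for Hmgcs1, Sqle, Cyp51, Insig1, Insig2 and Srebf2; Scap, Rdh11, Mvd, Nsdhl and Acat2 were added after their values were seen, and the companion gene lists are given as counts. The rule for members uses symbols and no values, but the members and lists were chosen with earlier results of these data known. Alternatives were other pseudocounts, filters and scalings, library weights, groups fitted alone, and each library left out.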

Additional observations from a re-analysis of the deposited data

Results flagged for a closer look

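In groups of 4, a library was marked where its gap to the next library, divided by the group's range, passed Dixon's 95% critical value. Of 104 combinations of a member and a group, 9 were marked, where chance marks about 1 in 20, and 6 of the 9 concern library 10 (WT, 30 µg/d). There it was the highest for Fdft1, squalene synthase (74.1 RPKM, next 41.6 RPKM), Fdps (305 RPKM, next 123 RPKM), Hmgcs1 (220.2 RPKM, next 73.1 RPKM), Mvd (11.8 RPKM, next 4.80 RPKM) and Rdh11 (27.3 RPKM, next 15.6 RPKM). It was the lowest for Ggps1 (2.55 RPKM, next 3.16 RPKM), the enzyme of the geranylgeranyl branch. In Gcg KO livers at 30 µg/d, library 14 was the highest for Lss (12.3 RPKM, next 8.74 RPKM), and library 13 the lowest for Tm7sf2 (38.6 RPKM, next 58.2 RPKM). In WT livers at 150 µg/d, library 15 was the lowest for Pmvk (19.2 RPKM, next 27.8 RPKM). The marks share libraries and the members vary together, so they are not separate observations.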

How the results depend on the processing

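Ebp remained the only called member in the genotype comparison without infusion under each of 10 alternatives (log2 difference -0.84 to -0.75) and with each library left out (-0.86 to -0.76, limma adjusted p 0.00835 to 0.0455). Its calls at 150 µg/d in Gcg KO livers were kept with each library left out (0.781 to 0.995 against none, 0.55 to 0.77 against 30 µg/d). With groups fitted alone, 0 members were called in both comparisons. Over all genes, 1 of 11665 was then called against none and 1 of 11573 against 30 µg/d. With library weights, 1 member (Ebp) was also called in WT at 30 µg/d against none, at 150 against 30 µg/d and in the differences of response at both doses, and 2 (Insig2 and Scap) in WT at 150 µg/d against none. The weights raised the calls over all 11590 genes as well. In WT these went from 0 to 4 at 30 µg/d against none, from 1 to 12 at 150 against 30 µg/d, and from 34 to 438 at 150 µg/d against none. For the difference of response they went from 1 to 11 at 30 µg/d and from 0 to 66 at 150 µg/d. Without the low-value filter, and with RPKM rescaled to 1 sum, 1 member (Ebp) was called in WT at 150 against 30 µg/d. Over all genes, 5 of 18876 were called without the filter and 2 of 11590 with rescaling. Leaving out single libraries gave 0 to 1 member called for WT at 150 µg/d against none (Insig2 without library 18, beside 19 of 11594 genes). It gave 0 to 1 for the difference of response at 150 µg/d (Ebp without library 22, the 1 gene called of 11594). No direction of a called value reversed; the uncalled Ebp difference in WT at 150 µg/d against none ran from -0.091 to 0.002. With single libraries left out, the median over the members ran from -0.571 to -0.216 for WT at 30 µg/d against none, from -0.019 to 0.348 for WT at 150 against 30 µg/d and from -0.048 to 0.123 for Gcg KO at 150 µg/d against none. No paired analysis was possible because the library numbers are unique and pair nothing. In the members that vary most, these group sizes did not resolve even changes of about 2-fold. For Hmgcs1 in Gcg KO at 30 µg/d against none, the log2 difference of -1.07 was not called (limma adjusted p = 0.474). Nor was it called at -1.403, without library 14. Sampling of reads was not separated from variation between livers.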
